A study of Mus musculus with 17 samples.

Results

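The regions described are stretches of mouse chromatin far from protein-coding genes at which a STAG2 antibody gave a peak in every library made with it. They were chosen by their STAG2 peaks: peaks of STAG2-WT replicate 1 on chromosomes 1 to 19 whose summit, the point of highest signal, lay within 250 bp of a summit in each of the other 3 STAG2 lists. They also had to lie outside every protein-coding gene span and over 5000 bp from either end of one. Of the 288674 peaks of that list, 1432 (0.496%) met the rule. The choice of protein-coding genes matters, as 840 of the 1432 also met it when all annotated genes were used. Each region is named here by its nearest protein-coding gene, which says nothing about what it regulates.

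The cells were peeled urothelium, the epithelium lining the bladder, from mice labelled Stag2-WT or Stag2-KO (here WT and KO), all taken 1 week after TMX induction. CUT&RUN, in which an antibody tethers a nuclease to chromatin and the released fragments are sequenced, was run on about 500000 cells per condition. Peak lists came from 4 STAG2 libraries (2 per genotype), 5 LIN54 libraries (3 WT, 2 KO) and 6 p130 libraries (3 per genotype). The labels place all STAG2 and LIN54 libraries in batch 1, p130-WT replicate 1 in batch 2 and 5 p130 libraries in batch 3, so a difference between the LIN54 and p130 antibodies cannot be told apart from one between batches. The labels call the libraries biological replicates without naming animals, and the Cre driver, sex and age are not given in the sources used here, so p-values measure the spread between these libraries. The lists held 285257 to 506896 peaks each on these chromosomes, with a lowest background of 1.28 to 2.03 fragments per base. The 2 pMNase controls were not used here. How completely STAG2 protein was lost in the KO cells was not measured by these lists.

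STAG2 is one of the alternative subunits of cohesin, the ring that extrudes chromatin loops and holds sister chromatids together, and cohesin is often found at CTCF sites and at active enhancers away from genes. LIN54 gives the MuvB complex its contact with DNA, at the CHR element. With p130, a pocket protein encoded by Rbl2, MuvB forms DREAM, the repressor of cell cycle genes in resting cells. DREAM is known for binding at promoters, and the regions below are all away from the ends of protein-coding genes.

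Some of the regions are promoters of non-coding genes, and their reference sequences are shown because they are the members whose sequence could be read. The summits of 32 members lay in the promoter window of a non-coding gene (250 bases before to 50 after its start, RefSeq, GRCm38.p6, the assembly of mm10). 4 of them are printed 5′ to 3′ on the gene's strand: Mir22hg, host of miR-22 and the member with the most LIN54 and p130 libraries (chr11:75461289-75461588, plus strand); Mir205hg, host of the epithelial miR-205 (chr1:193510161-193510460, minus strand); Gm40491 (chr12:86833714-86834013, minus strand); and Gm34323 (chr9:120601620-120601919, plus strand). Capitals mark matches to the AP-1 letters TGANTCA, the CRE letters TGACGTCA, the CTCF core letters CCACNAGNG or the CHR letters TTTGAA on either strand.
Mir22hg: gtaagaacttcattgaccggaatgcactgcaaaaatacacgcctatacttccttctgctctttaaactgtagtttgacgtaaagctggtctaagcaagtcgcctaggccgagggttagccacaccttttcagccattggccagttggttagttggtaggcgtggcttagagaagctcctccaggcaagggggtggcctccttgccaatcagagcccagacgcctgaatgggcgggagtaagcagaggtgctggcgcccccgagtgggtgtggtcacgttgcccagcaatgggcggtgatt
Mir205hg: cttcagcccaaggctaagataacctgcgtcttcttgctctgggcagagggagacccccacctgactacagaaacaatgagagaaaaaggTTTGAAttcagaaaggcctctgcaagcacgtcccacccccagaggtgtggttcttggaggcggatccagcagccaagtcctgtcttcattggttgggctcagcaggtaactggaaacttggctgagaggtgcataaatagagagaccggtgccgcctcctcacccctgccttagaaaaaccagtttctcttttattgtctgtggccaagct
Gm40491: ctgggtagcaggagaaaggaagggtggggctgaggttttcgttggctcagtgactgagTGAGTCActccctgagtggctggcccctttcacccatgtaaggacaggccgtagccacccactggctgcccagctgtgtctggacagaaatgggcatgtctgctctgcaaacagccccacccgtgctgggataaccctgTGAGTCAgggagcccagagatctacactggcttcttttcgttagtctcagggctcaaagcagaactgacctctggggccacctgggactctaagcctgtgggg
Gm34323: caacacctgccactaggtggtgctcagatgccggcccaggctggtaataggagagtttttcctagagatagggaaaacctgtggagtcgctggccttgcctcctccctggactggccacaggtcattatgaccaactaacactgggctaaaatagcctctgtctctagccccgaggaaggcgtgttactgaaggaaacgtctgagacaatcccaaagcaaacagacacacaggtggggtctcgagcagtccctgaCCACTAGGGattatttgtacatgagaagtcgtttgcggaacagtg
The Gm40491 window holds 2 AP-1 matches, the Gm34323 window 1 CTCF match and the Mir205hg window 1 CHR match, while the Mir22hg window holds none of these letters. Among the 32 windows, 6 (18.8%) held an AP-1 match, against 7.81% of all 32851 promoter windows and 9.31% of the 11588 windows of non-coding genes. The CHR letters were in 9 of the 32 (28.1%), against 17.9% of all windows and 21.4% of non-coding ones. A CTCF match was in 2 (6.25%), against 4.10% and 3.95%, and the CRE was in 0, against 1.79% and 0.975%. The GC box letters GGGCGG were in 9 (28.1%), against 35.7% and 16.3%. These are counts of letters, not of bound sites, and 32 windows are few.

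The member intervals at Mir22hg and Mir205hg reach over the miRNA itself. The mature miRNAs, all 22 bases long, are printed with the seed (bases 2 to 8) in capitals, since the 4 seeds differ and set which messages each arm can pair with. miR-22 lies at chr11:75463734-75463793 inside the member interval chr11:75459956-75463903, and miR-205 at chr1:193507467-193507524 inside chr1:193506572-193511418.
mmu-miR-22-5p: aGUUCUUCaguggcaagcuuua
mmu-miR-22-3p: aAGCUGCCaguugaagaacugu
mmu-miR-205-5p: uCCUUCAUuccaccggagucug
mmu-miR-205-3p: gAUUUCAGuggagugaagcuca

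The members lay closer to genes than most intergenic STAG2 peaks. The distance to the nearest end of a protein-coding gene had a median of 27.8 kb (quartiles 12.9 and 69.2 kb, range 5.02 to 1405 kb), against 81.4 kb for the 129882 other intergenic peaks of the same list. Within 50 kb of a gene end were 964 members (67.3%), against 39.8% of the others, and beyond 500 kb were 27 (1.89%), against 12.9%. These values describe the rule's own list and carry no test. The 1432 members had 1104 different nearest genes. Non-coding genes were often at hand: 343 members (24.0%) lay inside one, against 15.9% of the others, and 249 more lay within 5000 bp of one. By kind, 503 members lay in or within 5000 bp of a lncRNA gene, 76 of a pseudogene, 13 of a tRNA gene and 11 of a miRNA gene.

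Members were spread over all 19 autosomes, from 8.47 per 1000 intergenic peaks on chromosome 1 to 14.6 on chromosome 11. Most stood alone, and 182 (12.7%) fell in 86 runs of 2 or more with gaps of up to 10 kb between summits. The longest runs had 4 members. One spans 20.5 kb between Plekhg6 and Cd9, a tetraspanin of epithelial cell surfaces (summits from chr6:125413402-125433863), where a member was marked in 4 of the 5 LIN54 libraries on average. The other spans 17.3 kb near the start of chromosome 9, 311 to 328 kb from Alkbh8 (chr9:3007150-3024467), with 1 LIN54 library on average.

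That chromosome 9 run belongs in part to a small set with high local background. The fold and p of each peak give back its fragment count and the background coverage that the peak caller expected there. At 12 members the background was more than 5 times the lowest of the list in each of the 4 STAG2 lists, against a median of 1.18 times over all members. The most extreme, 61.1 kb from Axin2, had 236, 387, 267 and 442 fragments on a background of 193, 153, 233 and 244 in STAG2-WT replicates 1 and 2 and STAG2-KO replicates 1 and 2. The folds there were 1.22, 2.52, 1.15 and 1.81. The 12 differed widely: the one 179.4 kb from Arhgef26, with the least raised background, had folds of 4.01, 8.07, 4.34 and 6.63. The 12 make up 0.838% of the members, and results without them are given in the closing section.

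**Figure D1:**
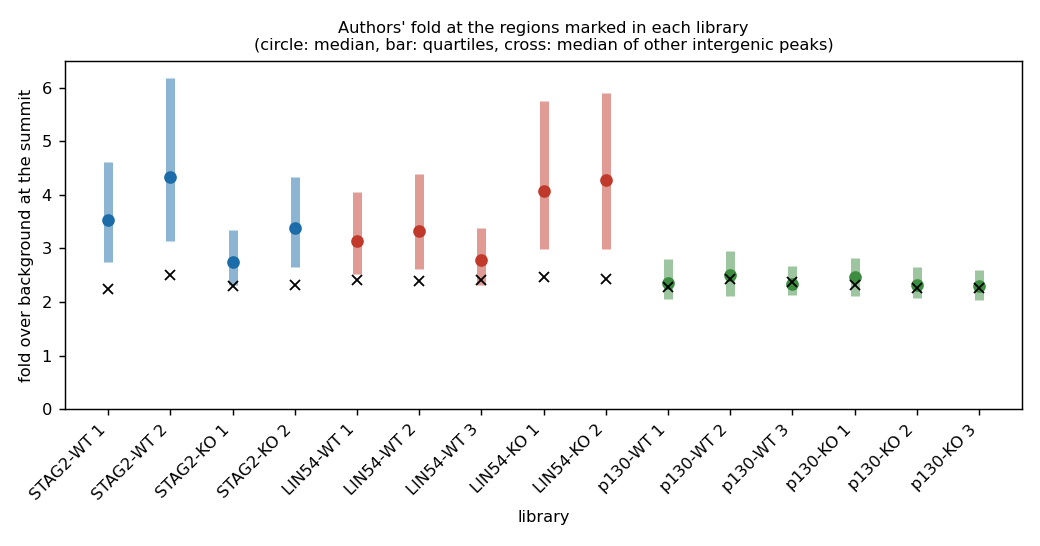
Fold over background (y axis, linear) at the regions that have a summit in each of the 15 libraries (x axis), with circles for medians, bars for the quartiles and crosses for the median of the other intergenic peaks. The STAG2 and LIN54 medians lie above the crosses, from 2.74 to 4.33, and the p130 medians lie from 2.29 to 2.51, near them.

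STAG2 signal at the members was weak to moderate and was present in KO libraries by the rule. The authors' fold over background had a median of 3.53 in STAG2-WT replicate 1 and 4.33 in STAG2-WT replicate 2, and of 2.74 in STAG2-KO replicate 1 and 3.37 in STAG2-KO replicate 2. The other intergenic peaks of the same list had medians of 2.25, 2.50, 2.29 and 2.31 in these 4 libraries. Behind the members' folds were median counts of 12, 13, 8 and 12 fragments at the summit. Folds reached 18.7, 27.0, 9.13 and 14.2 at the highest member of each list. These values chose the members, so they are described and not tested.

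Both WT medians were above both KO medians, by a small margin between WT replicate 1 and KO replicate 2. Both KO folds were below both WT folds at 609 members (42.5%), where 48.2% of all 5201 regions marked in every STAG2 library showed this. Both KO folds were above both WT folds at 80 members (5.59%), against 4.85%. The shares at the members are thus near those of all such regions, and gene-end regions had 55.9% below and intragenic ones 40.5%. The rule required a peak in both KO lists, so regions that lost theirs are not among these counts. The folds were compared as deposited, without scaling between libraries. Median peak widths were 732.5 and 669.5 bp in WT and 439 and 689.5 bp in KO, the narrowest being in STAG2-KO replicate 1.

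A strict threshold left fewer members. At q 0.01, members had a peak at 832 and 916 sites in WT and at 183 and 645 in KO. All 4 STAG2 libraries reached it at 148 members (10.3%) and no library at 310 (21.6%). Both WT and neither KO reached it at 212 (14.8%), and both KO and neither WT at 3 (0.209%). STAG2-KO replicate 1 had the fewest strong peaks over the whole list too, 1229 against 6752 to 25604 in the other STAG2 lists. By rank within a list, the median member was in the top 7.40% and 2.20% of the WT lists and the top 15.7% and 3.71% of the KO lists. In all 4 lists at once, 73 members (5.10%) were in the top 1% and 359 (25.1%) in the top 10%. The same q and rank counts were not made over all 5201 regions marked in every STAG2 library. Whether these shares are particular to the members is therefore not known.

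Both distance borders of the rule were checked for abrupt change, as a description. The 318 members with their farthest STAG2 summit over 200 and up to 250 bp away had a median STAG2-WT replicate 1 fold of 3.08 and were marked by LIN54 in 47.9% on average. The 321 intergenic peaks just outside, over 250 and up to 300 bp, had 3.11 and 40.4%. At the gene border, 63 members 5000 to 6000 bp from a gene end had 3.39 and 53.7%, and 72 regions 4000 to 5000 bp away had 3.81 and 58.1%. At the summit border the folds were close and LIN54 marking was lower outside the rule, while at the gene border both were higher outside it. The p130 share was 15.6% inside and 17.7% outside the summit border, and 17.5% and 17.6% at the gene border.

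LIN54 peaks were found at a majority of the members in 4 of the 5 LIN54 libraries. A member was called marked when a summit of the library lay within 250 bp of its own. The share marked was 59.2% in LIN54-WT replicate 1, 59.3% in replicate 2 and 41.2% in replicate 3, and 67.2% and 70.0% in LIN54-KO replicates 1 and 2. Both KO libraries lay above all WT libraries, and WT replicate 3 stood below the rest. The WT mean was 53.2% ± 10.4 (SD, n = 3), and the KO mean was 68.6% ± 1.98 (SD, n = 2). The difference of 15.3 percentage points gave a two-sided exact permutation p of 0.1, the smallest that 3 against 2 libraries allow. Without LIN54-WT replicate 3 the difference was 9.32 points.

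At the other intergenic peaks both KO libraries were below all WT libraries. These peaks were marked in 10.99%, 13.2% and 11.2% in LIN54-WT replicates 1 to 3 and in 8.53% and 10.6% in LIN54-KO replicates 1 and 2. Regions inside or near genes with the same STAG2 recurrence went the way of the members, with both KO libraries above all WT libraries. Intragenic ones were marked in 58.4%, 56.0% and 42.0% in WT and 66.1% and 69.9% in KO, and gene-end ones in 72.7%, 74.4% and 66.2% in WT and 77.7% and 79.99% in KO. The log2 odds ratio of marking, members against the other intergenic peaks in the same library, was 3.55, 3.26 and 2.48 in WT and 4.46 and 4.29 in KO. The groups did not overlap (WT 3.10 ± 0.56, n = 3, and KO 4.37 ± 0.12, n = 2, SD), and the difference of 1.28 had an exact permutation p of 0.1. With only LIN54 peaks at q 0.01 the difference in log2 odds ratio turned to -0.22. The other peaks were then marked more often in KO as well: 0.966% and 0.796%, against 0.226%, 0.313% and 0.0516% in WT. The share of members marked at q 0.01 was 18.2%, 20.5% and 5.38% in WT and 41.6% and 42.9% in KO. The KO LIN54 lists held 15641 and 12915 peaks at q 0.01 and the WT lists 4729, 6512 and 2134, so the number of strong peaks over the whole list was higher in both KO libraries than in all WT libraries, and its part in the result was not tested.

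Where LIN54 marked a member, its fold was above that of other intergenic peaks. Median folds were 3.15, 3.32 and 2.79 in WT and 4.06 and 4.27 in KO, against 2.40 to 2.47 at other intergenic peaks. Median counts were 9, 9 and 8 fragments in WT and 11 and 11 in KO, and median widths were 494.5, 541 and 382 bp in WT and 674 and 669.5 bp in KO. On each of these measures both KO libraries were above all WT libraries, and the same limit applies, since 3 against 2 libraries cannot reach a p under 0.1.

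**Figure D2:**
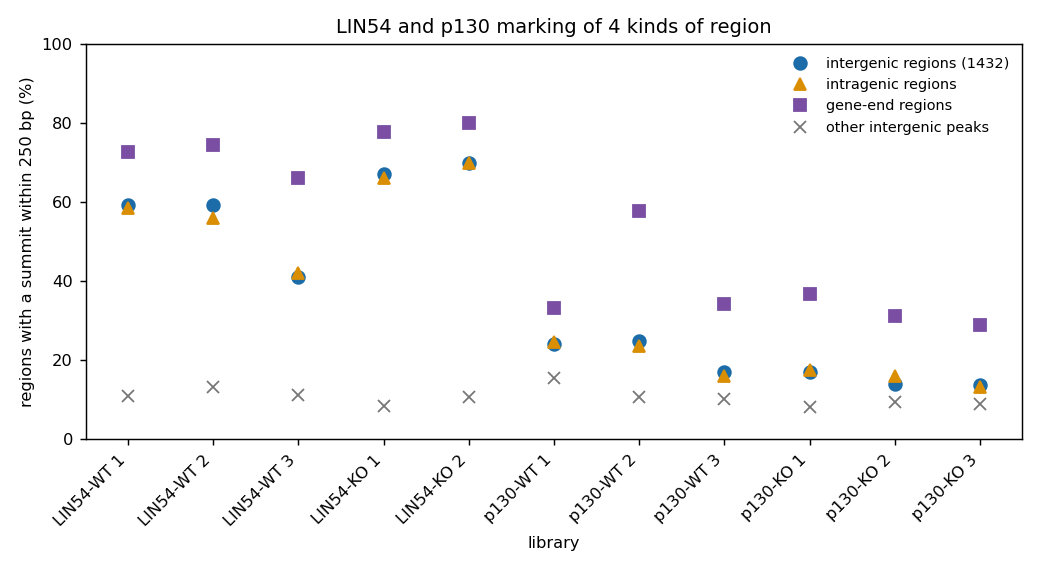
Share of regions (y axis, %) with a LIN54 or p130 summit within 250 bp in each of the 11 libraries (x axis), for the 1432 intergenic members (circles), intragenic regions (triangles), gene-end regions (squares) and other intergenic peaks (crosses). Circles and triangles nearly coincide in every library, squares lie above them and crosses below.

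p130 peaks were found at fewer members. The share marked was 24.1%, 24.8% and 17.0% in p130-WT replicates 1 to 3 and 17.2%, 14.1% and 13.8% in p130-KO replicates 1 to 3. The groups overlapped, since p130-KO replicate 1 was above p130-WT replicate 3. The WT mean was 21.95% ± 4.33 (SD, n = 3), and the KO mean was 15.01% ± 1.88 (SD, n = 3). The difference of -6.94 points had a two-sided exact permutation p of 0.2, where 0.1 is the smallest possible. Within batch 3 alone it was -5.87 points.

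The other intergenic peaks were marked by p130 less often than the members in each library. Their shares were 15.6%, 10.7% and 10.3% in WT and 8.21%, 9.35% and 9.03% in KO. The log2 odds ratio was 0.78, 1.47 and 0.84 in WT and 1.22, 0.67 and 0.69 in KO, with means of 1.03 ± 0.38 and 0.86 ± 0.31 (SD, n = 3 each). Their difference of -0.17 had an exact permutation p of 0.5, and without p130-WT replicate 2 it was 0.05. Folds of p130 peaks at members had medians of 2.29 to 2.51, next to 2.26 to 2.43 at other intergenic peaks, and 6 or 7 fragments at the median summit. At q 0.01 a p130 peak remained at 7, 7 and 4 members in WT and at 1, 3 and 3 in KO. The p130 lists as a whole held 313 to 886 peaks at q 0.01, fewer than any LIN54 list.

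Over all 11 LIN54 and p130 libraries, members were marked more often than other intergenic peaks. The mean difference within a library was 26.4 percentage points (SD 22.6, n = 11), from 4.72 to 59.3, and was above 0 in 11 of 11 libraries. A two-sided exact sign-flip permutation test gave p = 0.000977, the smallest that 11 libraries allow, and 0.00146 after Benjamini-Hochberg adjustment over 3 such tests. Members also have stronger STAG2 peaks than the others. By the rule they recur in every STAG2 list, while each of the others lacks a summit within 250 bp in some STAG2 list. The test therefore cannot tell marking by LIN54 or p130 from the recurrence of peaks between lists of any kind. Whether control libraries would show the same was not tested, as the pMNase controls were not used. With both sets held to q 0.01 in STAG2-WT replicate 1 the difference was 21.5 points, but the others still lacked that recurrence.

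The intragenic regions with the same STAG2 recurrence (1350 regions inside a protein-coding gene and over 5000 bp from its ends) were marked about as often. The mean difference was 0.39 points (SD 1.32, n = 11), from -1.82 to 3.29, above 0 in 7 of 11 libraries, with an exact permutation p of 0.372. Its sign turned under several settings, and with overlap of peak intervals in place of summits it was -0.91 points (exact permutation, adjusted p = 0.00488). Regions within 5000 bp of a gene end (2419) were marked more often than the members, by 16.8 points on average: the mean of members minus gene ends was -16.8 (SD 7.04, n = 11), from -32.9 to -9.23, and below 0 in 11 of 11 libraries (exact permutation p = 0.000977, adjusted p = 0.00146). The widest gap, in p130-WT replicate 2, was 24.8% of members against 57.7% of gene-end regions. The plot of shares by library shows the members and the intragenic regions side by side.

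LIN54 marking was more frequent where STAG2 was stronger, given here as a description. The members were divided into 4 equal groups by their mean rank in the STAG2 lists. In the strongest group 80.4%, 78.5% and 66.2% were marked in LIN54-WT replicates 1 to 3 and 84.9% and 86.9% in LIN54-KO replicates 1 and 2. In the weakest group the shares were 34.9%, 38.3% and 23.5%, and 45.3% and 47.5%. In each of the 4 groups both KO libraries were above all WT libraries. For p130 the strongest group had 17.0% to 34.9% and the weakest 11.5% to 18.99%.

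LIN54 summits lay nearer the member summits than those at other intergenic peaks. The median offset at marked members was 77 to 83 bp in the LIN54 libraries and 94 to 112.5 bp in the p130 libraries, against 116 to 120 bp and 118 to 123 bp at the other intergenic peaks. If summits fell anywhere in the 250 bp window alike, 20.2% of the marked members would have one within 50 bp. At members the share was 32.0% to 34.2% in the 5 LIN54 libraries and 23.3% to 31.0% in the 6 p130 libraries, so a majority of the summits lay farther off in each. At other intergenic peaks it was 21.7% to 22.6% for LIN54 and 20.6% to 22.3% for p130. The other 3 STAG2 libraries, which the rule used, gave 33.6% to 36.7%.

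The order of the members by fold was shared in part between libraries. Across all 1432, which are not independent replicates and share their list, Spearman's rho was 0.64 between the WT STAG2 libraries and 0.53 between the KO ones, and from 0.33 to 0.54 between a WT and a KO STAG2 library. It was 0.69 between the LIN54-KO libraries over the 799 members marked in both, 0.43 to 0.57 between LIN54-WT libraries and 0.32 to 0.53 between a LIN54-WT and a LIN54-KO library, lowest for LIN54-WT replicate 3. The STAG2-KO libraries had rho of 0.42 to 0.48 with the LIN54-KO libraries and 0.19 to 0.33 with the LIN54-WT ones. The STAG2-WT libraries had 0.29 to 0.36 and 0.35 to 0.44. These libraries are all of batch 1, and the rho values are a description.

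**Figure D3:**
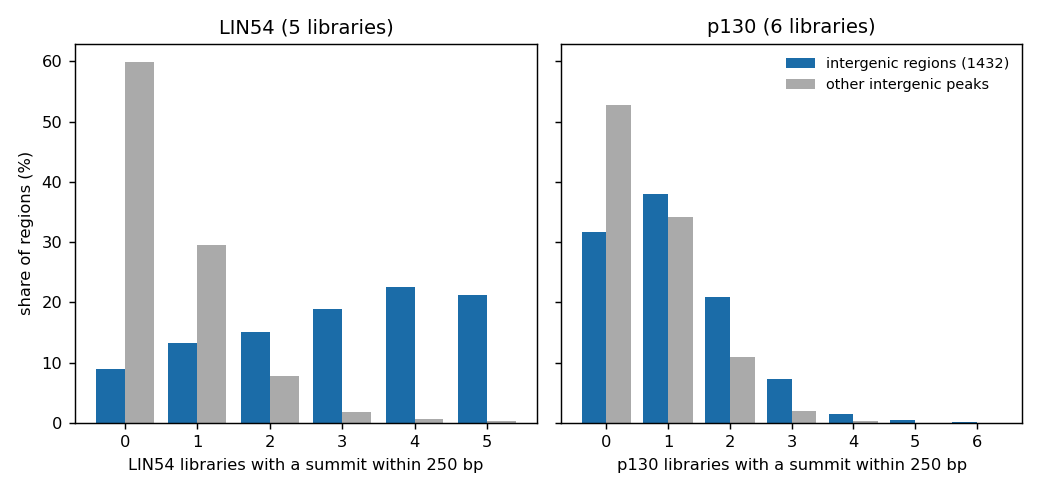
Share of regions (y axis, %) by the number of LIN54 (left, 5 libraries) or p130 (right, 6 libraries) libraries with a summit within 250 bp (x axis), for the 1432 members and the other intergenic peaks. For LIN54 the members peak at 4 libraries with 22.6% and the other peaks at 0 with 59.9%, and for p130 the members peak at 1 library with 38.1%.

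Counted by member, 305 of 1432 (21.3%) had a LIN54 peak in all 5 LIN54 libraries, while 1.15% of all peaks of the STAG2-WT replicate 1 list and 0.248% of the other intergenic peaks did. The share was 20.1% of the intragenic and 45.1% of the gene-end regions. Without LIN54-WT replicate 3 the 305 became 499, and with LIN54 peaks at q 0.01 it was 46, where 0.29% of all peaks met this. A further 323 had 4, 271 had 3, 216 had 2, 189 had 1 and 128 had none. For p130, 2 members (0.140%) had a peak in all 6 libraries, against 0.0939% of all peaks and 6.57% of gene-end regions. The count of p130 libraries was 1 for 545 members, 2 for 299, 3 for 105, 4 for 22, 5 for 6 and 0 for 453. The 2 members with all 6 were Mir22hg and a region 16.4 kb from Apbb1ip that is among the 12 on high background.

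LIN54 peaks in one genotype alone depended on the peak threshold. At 45 members (3.14%) both KO libraries and no WT library had a LIN54 peak, where 1.09% of all peaks of the list did, 4.96% of the intragenic regions and 2.15% of the gene-end regions. The opposite, all 3 WT libraries and neither KO library, held at 9 members (0.628%), where 0.248% of all peaks did. With LIN54 peaks at q 0.01 these counts were 164 (11.5%) and 1, where 0.577% and 0.00416% of all peaks met them, and the first held at 13.3% of the intragenic and 8.72% of the gene-end regions. For p130, 7 members (0.489%) had a peak in every KO and no WT library, against 0.105% of all peaks, and 14 (0.978%) in every WT and no KO library, against 0.301%. The counts moved with the libraries used: without any one LIN54 library the 45 became 73 to 115 and the 9 became 20 to 33. Without any one p130 library the 7 became 7 to 24 and the 14 became 16 to 66.

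By STAG2 rank, the first of the 45 lay near Atp11b, a phospholipid flippase, Zbtb38, a zinc finger protein that binds methylated DNA, and Smndc1, a splicing factor. At the Atp11b region (60.8 kb, chr3:35693034-35693659) the LIN54 fold was 4.43 and 4.17 in KO replicates 1 and 2, with no LIN54 summit in WT, and the STAG2 fold was 3.40 and 6.27 in WT and 3.90 and 6.39 in KO. At the Zbtb38 region (12.8 kb, chr9:96669690-96670483) the LIN54 fold was 3.31 and 4.19 in KO. Both rest on 8 to 10 fragments per summit. Of the 9 with LIN54 in WT alone, the first by STAG2 rank lay 69.3 kb from Tmc1, a hair cell channel gene (chr19:21104122-21108015), where LIN54 folds were 4.46, 6.95 and 4.03 in WT. A region 20.9 kb from Krt80, an epithelial keratin (chr15:101326691-101327903), had LIN54 folds of 2.13, 2.61 and 2.43 in WT, with q of 0.72, 0.51 and 0.65. At Tmc1 the WT signal was well above that at Krt80, where no LIN54 peak reached q 0.01. These calls rest on summits within 250 bp, and a wide peak with its summit farther off is not counted. Among the 11 LIN54 and p130 lists, peak intervals in 8 overlapped the Atp11b region and in 3 the Zbtb38 region. For the Tmc1 and Krt80 regions it was 9 and 7. These overlaps were not split by antibody.

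The p130 calls in one genotype alone are also given by STAG2 rank, and they too rest on summits within 250 bp. The first with p130 in KO alone lay 118 kb from Frmd6, a FERM domain protein (chr12:70706685-70707937), with p130 folds of 2.55, 1.90 and 2.71 in KO replicates 1 to 3. A lower-ranked one 28.7 kb from Dhx40, an RNA helicase, had p130 folds of 3.42, 2.41 and 2.59 in KO. The first with p130 in WT alone was the Gm40491 promoter printed above, 46.8 kb from Irf2bpl, with p130 folds of 3.75, 2.02 and 2.31 in WT replicates 1 to 3. The next, 89.3 kb from Dyrk2, a protein kinase, had 3.98, 2.76 and 2.33 in WT. Of these 12 p130 peaks the lowest q was 0.086, at Dyrk2 in p130-WT replicate 1. LIN54 was clear at the Gm40491 promoter: folds were 8.79, 7.57 and 5.26 in WT and 17.3 and 10.6 in KO, with both KO libraries above all WT libraries. STAG2 folds there were 6.02 and 12.5 in WT and 4.23 and 6.67 in KO.

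Of the 1432, 1 member had a summit in all 15 libraries: the Mir22hg promoter (interval chr11:75459956-75463903, 6.58 kb from Wdr81). STAG2 folds there were 3.90 and 9.14 in WT and 2.40 and 2.23 in KO. LIN54 folds were 5.77, 9.46 and 3.05 in WT and 11.1 and 9.05 in KO. p130 folds were 3.45, 3.40 and 1.87 in WT and 2.87, 2.08 and 2.81 in KO. LIN54 folds were above 5 in 4 of 5 libraries with WT replicate 3 the lowest, and p130 in WT and KO overlapped. STAG2 was higher in both WT than in both KO libraries. Not all of these summits were strong calls. For STAG2, q was 1.3e-05 and 1.5e-21 in WT and 0.286 and 0.137 in KO. For LIN54 it was 5.6e-13, 8.4e-19 and 0.033 in WT and 8.9e-46 and 2.5e-29 in KO. For p130 it was 0.0044, 0.037 and 0.92 in WT and 0.023, 0.75 and 0.099 in KO. The region was in the top 24.4% of the STAG2 lists on average. Summits in all 11 LIN54 and p130 lists were at 1 member (0.0698%) and at 1 of the other intergenic peaks (0.00077%), too few to compare. The same share was not counted over all peaks of the list, nor over the intragenic and gene-end regions. Overlap of peak intervals in place of summits gave 15 members with peaks in all 11. The share of other regions with such overlap was not counted. Overlap also depends on width, with a median of 732.5 bp for members and 323 bp for other intergenic peaks in STAG2-WT replicate 1.

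No LIN54 or p130 summit lay within 250 bp of 62 members (4.33%), against 33.3% of the other intergenic peaks. Those others lack the STAG2 recurrence, and the same share was not counted over all peaks or over the intragenic and gene-end regions. Whether it is particular to the members is not known, and on average over the libraries 37.1% of members and 36.7% of intragenic regions were marked. Of these 62, 39 still overlapped a LIN54 or p130 peak interval and 23 overlapped none. The first by STAG2 rank was a wide region inside a non-coding gene in the type I keratin cluster, 17.4 kb from Krt9 (chr11:100166370-100169898). Its STAG2 folds were 13.1 and 19.9 in WT and 5.61 and 14.2 in KO. Its interval overlapped peak intervals in 10 of the 11 LIN54 and p130 lists, and how often an interval this wide overlaps a peak in such lists was not measured. The next by STAG2 rank, near Cby3, Hsdl2, Ampd2 and Arhgef4, had STAG2 folds of 2.69 to 5.18, and the Ampd2 and Arhgef4 regions overlapped no LIN54 or p130 peak.

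**Figure D4:**
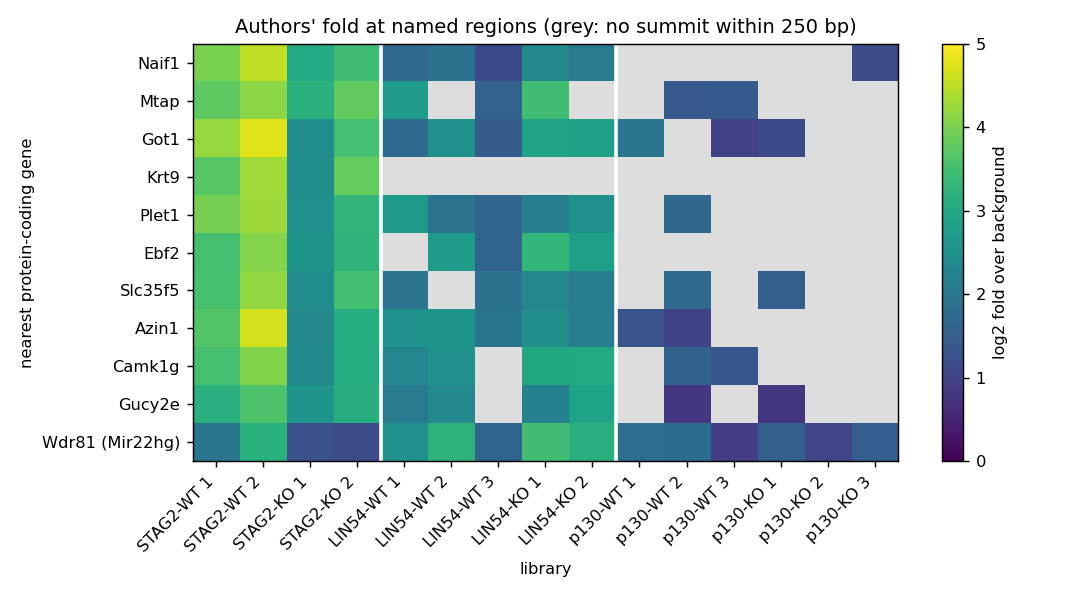
Authors' fold, as log2 (colour), at the 10 members with the best mean STAG2 rank and at the Mir22hg promoter (rows, by nearest gene) in the 15 libraries (columns), with grey where no summit lay within 250 bp. STAG2 columns are bright in the first 10 rows, LIN54 columns are mostly filled except for Krt9, and p130 columns are mostly grey.

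The 10 members with the best mean rank over the STAG2 lists were near Naif1, Mtap, Got1, Krt9, Plet1, Ebf2, Slc35f5, Azin1, Camk1g and Gucy2e. The first, 31.9 kb from Naif1, a nuclear apoptosis-inducing factor (chr2:32487155-32487766), had STAG2 folds of 15.8 and 23.1 in WT and 8.32 and 10.97 in KO. LIN54 folds there were 3.27, 3.64 and 2.17 in WT and 5.08 and 4.14 in KO. The p130 antibody gave a summit in p130-KO replicate 3 alone, with a fold of 2.23. Both KO libraries were below both WT libraries for STAG2 and above all WT libraries for LIN54.

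The region 7.79 kb from Mtap, an enzyme of methionine salvage (chr4:89125537-89129979), was 4443 bp wide. Its STAG2 folds were 13.6 and 17.5 in WT and 9.13 and 13.9 in KO, so one KO library lay between the WT ones. LIN54 folds were 6.81 in WT replicate 1, 3.02 in WT replicate 3 and 11.1 in KO replicate 1, with no summit within 250 bp in the other LIN54 libraries. The Mtap interval overlapped a peak interval in all 11 LIN54 and p130 lists, so the other LIN54 libraries had a peak with its summit farther off. The region 5.98 kb from Got1, the cytosolic aspartate aminotransferase (chr19:43530230-43531521), had the highest fold of any member, 27.0 in STAG2-WT replicate 2, next to 18.7 in WT replicate 1 and 5.46 and 11.4 in KO. Its LIN54 folds were 3.37, 5.96 and 2.79 in WT and 7.35 and 7.24 in KO. At Got1 too, both KO libraries were above all WT libraries for LIN54 and below both WT libraries for STAG2. Each direction was also that of the lists in general. Median LIN54 folds at marked members were higher in both KO libraries than in all WT libraries. Both KO STAG2 folds were below both WT folds at 42.5% of members and 48.2% of all regions marked in every STAG2 library. How many members showed both directions was not counted.

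The region 50.3 kb from Plet1, a surface protein of epithelial progenitors (chr9:50443853-50444603), had STAG2 folds of 15.8 and 19.4 in WT and 5.74 and 9.75 in KO. Its LIN54 folds of 6.60, 3.72 and 3.11 in WT and 4.49 and 5.96 in KO overlapped. The region 55.6 kb from Azin1, a regulator of polyamine synthesis (chr15:38431254-38432054), had STAG2 folds of 12.6 and 25.3 in WT and 5.11 and 8.51 in KO, and LIN54 folds of 5.87, 6.04 and 3.90 in WT and 5.55 and 4.30 in KO. At these regions the genotypes were apart for STAG2 and not for LIN54.

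The region named for Camk1g, a calcium-dependent kinase 133 kb away, lies next to Mir205hg (chr1:193503310-193504852). Its STAG2 folds were 11.6 and 16.5 in WT and 5.17 and 8.50 in KO, and its LIN54 folds 4.89 and 5.96 in WT replicates 1 and 2 and 8.22 and 8.29 in KO. The Mir205hg promoter itself had weaker STAG2 folds of 6.65 and 9.71 in WT and 2.86 and 3.86 in KO, and LIN54 folds of 2.94, 3.50 and 2.85 in WT and 2.99 and 4.14 in KO. Around Ebf2, a transcription factor of fat and bone cells, strong members stood near each other: one inside a non-coding gene (chr14:67188257-67189535, STAG2 folds 11.5 and 16.7 in WT and 6.01 and 9.58 in KO) and the Gm30438 promoter (chr14:67158913-67159212).

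Luminal urothelium genes often had a member in a wide window around them. Within 100 kb of an end, 16 of 22 luminal urothelium genes (72.7%) had a member, where 3023 of 20665 protein-coding genes (14.6%) did. The 16 include keratins of the superficial and intermediate layers (Krt7, Krt8, Krt18, Krt19, Krt20), tight junction genes (Cldn3, Cldn4, Ocln), the uroplakin gene Upk3a, Snx31, and transcription factors of urothelial differentiation (Gata3, Pparg, Elf3, Grhl3, Klf5, Ovol1). The nearest members of these 16 were 15 distinct regions, since Krt8 and Krt18 share one. They lay from 9.15 kb (Krt7) to 94.1 kb (Grhl3) away. The list gene was the nearest protein-coding gene of its region for Krt7, Krt20, Pparg, Klf5 and Cldn4. For the rest another gene was nearer. The luminal genes without a member were the other uroplakin genes of the list (Upk1a, Upk1b, Upk2 and Upk3b), Foxa1 and Cldn7. Of 13 basal genes 4 had a member (30.8%): Egfr, Krt14, Krt15 and Krt17. Krt14 and Krt15 share the Krt9 region with Krt19.

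At the luminal genes the STAG2 members differed much in strength. The region 20.3 kb from Cldn3 (chr5:134965095-134966819) was in the top 0.194% of the STAG2 lists on average and the one 19.5 kb from Ovol1 (chr19:5529130-5530187) in the top 0.0892%. The regions at Gata3 (18.99 kb away) and Upk3a (21.1 kb away) had mean ranks of 44.6% and 21.6%, so the first is a weak peak. LIN54 was at all 5 libraries for the nearest regions of Cldn4 and Ovol1, and at none for those of Gata3 and Krt19. The median was 3 LIN54 and 1 p130 library for the luminal list, the same as over all members.

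Immediate early genes, which respond within minutes to growth factors and stress, had a member within 100 kb in 12 of 25 cases (48.0%). Among them were the AP-1 genes Fos, Fosl1, Fosl2, Jun and Atf3, the antiproliferative gene Btg2, and Ier3, Ier5, Klf6, Klf10, Mcl1 and Nr4a1. The AP-1 genes Fosb, Junb and Jund of the list had none. Atf3 had 4 members within 100 kb and Fos had 3. The nearest regions of 7 of the 12 had LIN54 in all 5 libraries, against 21.3% of all members. The region nearest Fosl1, 73.7 kb away and among these 7, is also the Ovol1 region of the luminal list. For p130, the nearest regions of 3 of the 12 had it in 3 or more libraries, against 9.43% of all members. The region 8.16 kb from Ier3 (chr17:35812629-35814088) was in the top 0.458% of the STAG2 lists, and that 10.4 kb from Atf3 (chr1:191193225-191194362) in the top 1.28%, with LIN54 in 5 and p130 in 4 libraries.

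**Figure D5:**
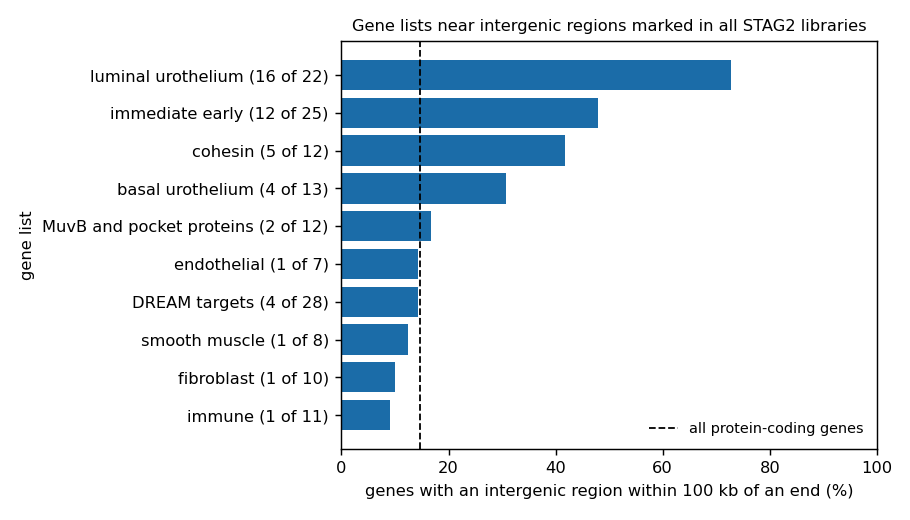
Share of genes in each list (x axis, %) with one of the 1432 intergenic members within 100 kb of a gene end, with the count beside each list name (y axis) and the share of all protein-coding genes as a dashed line at 14.6%. Luminal, immediate early, cohesin and basal lists lie above the line, and the DREAM target and other cell type lists lie near or below it.

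The lists of the proteins under study and their targets were mixed. Cohesin genes had a member in 5 of 12 cases: Mau2, Pds5a, Smc3, Stag1, which encodes the alternative to STAG2, and Wapl, which releases cohesin. The Stag1 region, 14.6 kb away (chr9:100582808-100584337), had LIN54 in all 5 libraries and p130 in 2. DREAM target genes had a member in 4 of 28 (14.3%), the level of all genes: Ccne1, Cdk1, Mcm3 and Mki67. The Cdk1 region, 13.6 kb away (chr10:69321252-69322274), had STAG2 folds of 5.03 and 7.19 in WT and 3.77 and 5.66 in KO, and LIN54 folds of 3.57 in WT replicate 2 and 5.65 and 4.82 in KO. MuvB and pocket protein genes had one in 2 of 12, Lin9 and Rbbp4.

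Genes of other cells that peeled urothelium could hold were near the background. A member lay within 100 kb of 1 of 10 fibroblast genes (Col1a1), 1 of 8 smooth muscle genes (Cnn1), 1 of 11 immune genes (Itgam) and 1 of 7 endothelial genes (Vwf). The lists were drawn up with earlier results of these data known, several genes share a member, and a list's share depends on how its genes are spaced, so the counts are descriptions without a test. They also depend on the rule: with summits within 100 bp, 5 of the luminal and 7 of the immediate early genes had one, where 4.77% of all genes did, and with all annotated genes in the rule 12 and 7 did, where 8.98% did.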

How the data were processed

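CUT&RUN peak lists of 15 libraries from mouse urothelium were used, with STAG2, LIN54 and p130 antibodies. The submitters' processing notes name MACS2, Bowtie2 and bcl2fastq and the build mm10, while versions, settings and any control library in the peak calls are not given in the sources used here. For each peak the deposited lists give a fold (a ratio of summit pileup to expected background), a −log10 p-value, a −log10 q-value and a summit. A list ends at p 0.05. These deposited values are within one library and were not scaled between libraries. Folds served only to describe, rank and filter peaks. Where folds of WT and KO libraries are set side by side, this is a description without a test.

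Peaks on chromosomes 1 to 19 were matched between lists by summit distance (250 bp) and placed against the RefSeq gene table of GRCm38.p6 (20665 protein-coding and 47042 genes in all on these chromosomes). Fragment counts and background were solved from fold and p, and every sampled peak gave a whole count within 0.002 on the log10 scale. The lowest background coverage was 1.28 to 2.03 fragments per base, which limits depth. A member without a summit in a list may lack binding or hold signal too weak for that depth, and the lists cannot tell which. It may also overlap a peak with its summit over 250 bp away. The library was the unit. Shares and log2 odds ratios (with 0.5 added to all cells) were set against genotype in exact permutation tests, two-sided, and shares of 2 kinds of region by exact sign-flip tests with Benjamini-Hochberg adjustment over 3. Regions were named by rule: the 10 with the best mean STAG2 rank, those marked in all 15 libraries, the best of those with no LIN54 or p130 summit, up to 3 per antibody marked in one genotype alone, the one nearest a gene of each list, and the longest runs. Other regions were named after their values were seen. The members, the gene lists and the rules were chosen with earlier results of these data known.

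Alternatives were other summit distances, q 0.01, all genes, interval overlap, leaving out each library, batch 3 alone and a block on replicate number, and, added after the data were seen, the removal of members on high local background. Replicate numbers do not name shared animals, so no block is in the tests. Sequences are from RefSeq (GRCm38.p6), where 32 members matched a non-coding promoter window. Motifs at the other members were not searched, since no genome sequence was used here. The code, tested on simulated data, ran in Python 3.11.15 with SciPy 1.17.1, NumPy 2.4.6, pandas 2.3.3 and Matplotlib 3.10.9.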

Additional observations from a re-analysis of the deposited data

How the results depend on the processing

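The number of members depended most on the rule. It was 410 with summits within 100 bp, 2987 within 500 bp, 840 with all annotated genes, 832 with q 0.01 in STAG2-WT replicate 1 and 148 with q 0.01 in all 4 STAG2 libraries, and 2321 to 3835 when one of the other STAG2 libraries was not required. Without STAG2-KO replicate 1, the library with the fewest strong peaks, it was 3835. Taken from another STAG2 list it stayed within 1.5 times of 1432, and 1420 were left without the 12 on high background.

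The greater marking of members than of other intergenic peaks (23.1 to 28.5 points with each library left out, 11.6 with LIN54 and p130 peaks at q 0.01, 35.1 with interval overlap) and the lesser marking than of gene ends (-17.6 to -15.2, and -21.5 to -13.0 under the other settings) kept their direction and an adjusted p under 0.05 in every setting run. The small difference from intragenic regions changed sign: -0.035 points at 500 bp, -0.11 with q 0.01 in STAG2-WT replicate 1, -0.44 with all genes and -0.91 with interval overlap, against 0.10 to 0.61 with each library left out. The cause of this change of sign was not tested. In no setting were the other intergenic peaks matched to the members in STAG2 recurrence.

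The KO minus WT difference in LIN54 share was 9.32 to 18.4 points with each library left out (LIN54-WT replicate 3 gives the lowest) and positive in every setting run. Its log2 odds ratio was 0.97 to 1.50 with each library left out and -0.22 at q 0.01. For p130 the share difference was -9.43 to -5.52 with each library left out. Its log2 odds ratio was -0.35 to 0.05 with each library left out, 0.047 without p130-WT replicate 2, 0.044 at 500 bp and 0.070 with q 0.01 in STAG2-WT replicate 1. Without the 12 members on high background, a set chosen after seeing the data, none of the 7 tests changed direction or call.

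With replicate numbers as a block (paired by number, replicate block), the LIN54 share difference was 9.32 points and its log2 odds ratio 0.97 (exact permutation p of 0.5 each, the smallest for 2 pairs), and the p130 values were -6.94 and -0.17 (exact permutation p of 0.25 and 0.75). Deviations of same-numbered libraries from their genotype mean correlated at -0.050 to 0.024 over the members. This check cannot decide whether the numbers pair the libraries. The deviations of the 2 LIN54-KO libraries mirror each other by construction, and a shift in share common to a pair would not show in it.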
